A study of Mus musculus with 9 samples.

Results

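The introns described here are those whose read level was at least 1.5-fold higher in mouse embryonic stem cells given the Clk kinase inhibitor KH-CB19 for 2 h than in cells given the solvent DMSO for 2 h. The v6.5 line is a mouse embryonic stem cell line, and it was grown on gelatin in medium with serum and leukemia inhibitory factor. The groups were KH-CB19 at 2 h, DMSO at 2 h, KH-CB19 at 0 h and DMSO at 0 h, and each of the 4 groups had 2 libraries, labelled as independent biological replicates. At 0 h the cells were harvested immediately after the drug or the solvent was added. All 8 libraries were stranded and polyA-selected, and RNA integrity numbers ran between 8.8 and 9.4. The authors' deposited table gives group means for introns, and 2 h means only for the introns that the series calls detained, that is, spliced late in polyadenylated RNA. The members were chosen by these 2 h means: an intron was taken when the mean of its KH-CB19 2 h and DMSO 2 h values was 30 reads or more and when its KH-CB19 2 h value plus 1 was at least 1.5 times its DMSO 2 h value plus 1. The rule found 391 members in 347 genes, out of 2815 introns that reached the mean of 30 reads, 3454 introns with 2 h values and 22228 introns in all.

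Clk kinases phosphorylate SR proteins, which are RNA-binding proteins with serine- and arginine-rich tails that help the spliceosome to choose splice sites. Phosphorylation of these tails sets where the SR proteins reside in the nucleus and how they act in splicing. A detained intron stays in an otherwise spliced and polyadenylated transcript, which is held in the nucleus, and it can later be spliced out or the transcript can be degraded. More reads in such an intron can come with slower splicing, with more transcription of the gene or with slower decay, and in intron reads alone these cannot be told apart.

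A pair of limits holds for every value below. The deposited values are means of 2 libraries, so no spread between libraries and no test could be computed from them, and the adjusted p-values are those of the authors' deposited table. The 2 h means chose the members, so the 2 h differences are a description. Of the introns with 30 reads or more, 13.9% met the rule, 11.0% met the mirrored rule of a 1.5-fold lower value with KH-CB19 (310 introns, called losing below), and 2114 introns lay in between. Of 13 pluripotency markers, 12 had an intron in the table, none of 14 markers of the germ layers and trophoblast had any, and of 9 fibroblast markers 1 did, Fn1.

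Splice-site sequences could be read for a small set of members. The annotation used here holds spliced transcripts, so the intron's own bases were available only for introns that also lie inside an exon of another annotated transcript of the same gene. This was so for 29 members, each matched by gene, strand and exact length to GENCODE M21 on the GRCm38 build. The 5′ splice sites below show 3 exon bases in lower case and the first 6 intron bases in capitals, and they are the 8 sites of matched members with the highest fold at 2 h, all of which rose, then the Srsf1 site described further on and both sites that lack G at intron base 5.
Tpr intron 59: tagGTAAGT
Usp11 intron 13: ttcGTAAGT
Atp11b intron 27: ctgGTAAGT
Alg6 intron 11: attGTAAGT
Zfp384 intron 11: ccgGTAAGG
Top3b intron 24: ttgGTGAGT
Leo1 intron 8: cagGTAAGC
Pfas intron 25: atgGTGAGT
Srsf1 intron 3: gagGTAGGT
Taf15 intron 35: gagGTGGCT
Exosc5 intron 2: ctgGTAACT

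All 29 of these introns began with GT and ended with AG. G stood at intron base 5, a position that pairs with U1 snRNA, in 27 of 29 members (93.1%, exact 95% interval 77.2 to 99.2%), in 31 of 45 losing introns (68.9%) and in 188 of 286 introns in between (65.7%). The start GTAAG was read in 12 members (41.4%), against 9 of 45 losing introns and 53 of 286 introns in between (18.5%). The start GTGAG was read in 9 members (31.0%), against 9 of 45 losing introns and 58 of 286 introns in between (20.3%). Introns starting with ATATCC or GTATCC, the start of the minor class spliced by the U12-dependent spliceosome, numbered 0 of 29 members, 0 of 45 losing introns and 5 of 286 introns in between; a count of 0 among 29 still allows a share of up to 11.9%. With introns chosen by the authors' adjusted p instead, G stood at base 5 in 15 of 15 rising introns, 13 of 22 falling introns (59.1%) and 218 of 323 others (67.5%). With a minimum mean of 10 reads it stood there in 37 of 43 members (86.0%), 54 of 75 losing introns (72.0%) and 255 of 379 introns in between (67.3%). These intervals cover counting only, and introns with an annotated retained copy are not a random draw of the members.

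Short members differed in sequence, and 2 are printed whole because both belong to RNA-binding proteins and differ in their values at 0 h and in the authors' test. Since these values picked them, the pair cannot show whether sequence goes with such values. Capitals mark the first 6 and the last 2 intron bases. Srsf1 codes for a classical SR protein, and Taf15 codes for an RNA-binding protein of the FET family whose C-terminal part is made of glycine-rich repeats. Srsf1 intron 3 lies at chr11:88049216-88049411 on the plus strand and Taf15 intron 35 at chr11:83504711-83504830 on the plus strand, both of GRCm38.
Srsf1 intron 3: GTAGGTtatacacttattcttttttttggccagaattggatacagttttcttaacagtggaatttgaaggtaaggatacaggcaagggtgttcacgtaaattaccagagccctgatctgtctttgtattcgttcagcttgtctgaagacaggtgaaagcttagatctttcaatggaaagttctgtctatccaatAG
Taf15 intron 35: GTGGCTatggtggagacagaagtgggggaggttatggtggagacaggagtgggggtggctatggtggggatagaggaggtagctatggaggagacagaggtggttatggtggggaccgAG
The Srsf1 sequence holds a run of 8 T near its start, no TATGG, and 22.4% G. The Taf15 sequence holds TATGG 5 times and 51.7% G. Both stretches also lie inside an exon of another annotated transcript of their gene, so exon reads of such transcripts can count as intron reads. How much of the Taf15 reads comes from such an exon was not tested. Srsf1 intron 3 had 313 normalised reads with KH-CB19 and 165 with DMSO at 2 h, and it rose (by the authors' deposited table, adjusted p = 0.00061, log2 ratio 0.92). At 0 h it had 121.5 reads with KH-CB19 and 212.5 with DMSO. The 0 h reads are not scaled for depth, and over all introns with 2 h values they ran lower with KH-CB19 (median log2 ratio -0.36). Taf15 intron 35 had 579 reads with KH-CB19 and 344 with DMSO at 2 h, and that difference did not pass (by the authors' deposited table, adjusted p = 0.101). At 0 h it had 885.5 reads with KH-CB19 and 408.5 with DMSO. Other short members were Tinf2 intron 6 (154 bp), with 21.4% G, and Srrt intron 23 (151 bp), with 33.8% G. Neither passed (by the authors' deposited table, adjusted p = 0.38 and 0.124).

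Across the 391 members the median level at 2 h was 103 normalised reads with KH-CB19 and 51.8 with DMSO. The median fold was 1.84 (exact 95% interval of the median 1.80 to 1.89), with quartiles of 1.64 and 2.18 and a highest value of 5.76. Of the 2 h reads summed over the 3454 introns with 2 h values, members together held 17.2% in KH-CB19 cells (67519 reads) and 9.52% in DMSO cells (35130 reads). The authors' test called a rise at adjusted p below 0.05 in 185 of 391 members, against a background of 6.61% of the 2815 introns, and since the rule used the same contrast nothing is read from that gap. The other 206 members did not pass, with adjusted p-values between 0.0508 and 0.696.

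**Figure D1:**
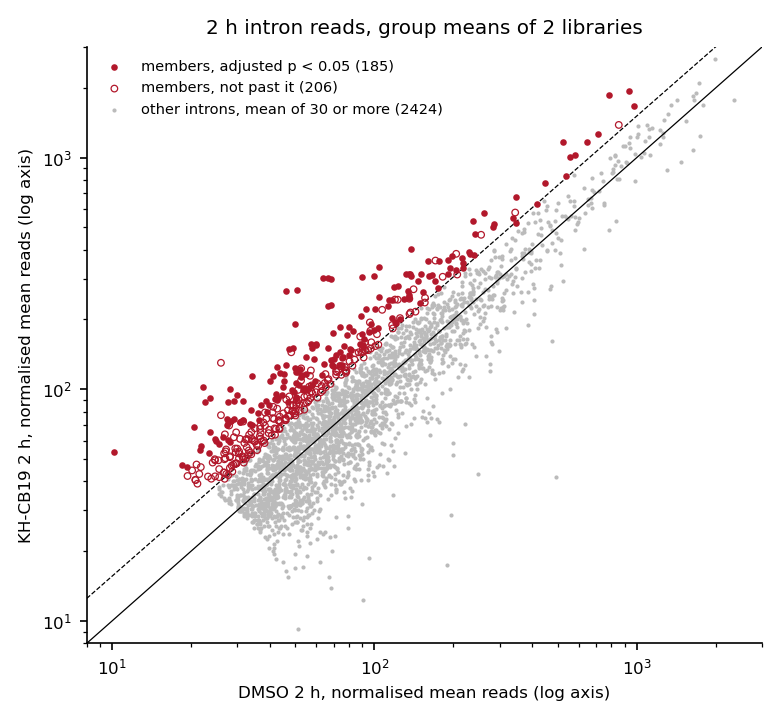
Each point is an intron with a mean of 30 or more 2 h reads, placed by its DMSO 2 h mean (x) and its KH-CB19 2 h mean (y), both in normalised reads on log axes. Filled red points are the 185 members past adjusted p 0.05, open red points the 206 members not past it, and grey points the other 2424 introns; the solid line marks equality and the dashed line the 1.5-fold rule.

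Whether a member passed went with its depth and its fold. Of 23 members at 3-fold or more, 22 passed, as did 88 of 108 members at 2-fold to under 3-fold and 75 of 260 members under 2-fold. In members with a mean of 30 to under 50 reads 16 of 91 passed (17.6%), and in members with 200 reads or more 48 of 57 passed (84.2%), while the median fold was 1.84 and 1.82 in these 2 classes. The exception at high fold was Nol10 intron 13, with 130.04 reads in KH-CB19 cells and 25.995 in DMSO cells, where the authors' deposited table gave an adjusted p of 0.387. Nol10 codes for a nucleolar protein. Over members, the log2 ratio at 2 h had a rank correlation of 0.06 with intron length, -0.08 with the 0 h excess and 0.00 with position in the transcript (391, 391 and 334 introns, which share libraries); none of these measures ordered the members by the size of their difference.

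Several of the strongest rises were in introns with few reads, below the members' median of 78.0 for the mean of both 2 h values. Tdp1, the enzyme that removes stalled topoisomerase from DNA ends, had 53.4 reads with KH-CB19 and 10.1 with DMSO in intron 12 (chromosome 12, 101152328 to 101153659 of mm9). In the authors' deposited table this is a log2 ratio of 2.40, with adjusted p = 1.24e-05. Its 10.1 reads with DMSO were the lowest DMSO 2 h value of any member, so this fold rests on few reads. Kdm3a, a histone H3 lysine 9 demethylase, had 102 reads with KH-CB19 and 22.2 with DMSO in its 324 bp intron 21 (chromosome 6, 71546887 to 71547210; the authors' deposited table, adjusted p = 2.44e-07, log2 ratio 2.20). Npepps, a cytosolic aminopeptidase, had 88.3 reads with KH-CB19 and 22.5 with DMSO in intron 25 (by the authors' deposited table, adjusted p = 2.49e-06, log2 ratio 1.97). Each of these 3 introns was 3.92-fold or more higher with KH-CB19. Elac2, the nuclease that trims the 3′ end of tRNA precursors, had 91.3 reads with KH-CB19 and 23.7 with DMSO in intron 16, and the authors' deposited table gave a log2 ratio of 1.95 with adjusted p = 2.08e-06. Gfm2, a mitochondrial ribosome recycling factor, had 68.8 reads with KH-CB19 and 20.5 with DMSO in intron 12 (by the authors' deposited table, adjusted p = 0.000151, log2 ratio 1.75).

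At the other end, the rule cut through a continuous range. Just inside it were Polr1b intron 13 (156 reads with KH-CB19 and 103 with DMSO), Nup153 intron 27 (137 reads with KH-CB19 and 90.9 with DMSO) and Dkc1 intron 15 (81.6 reads with KH-CB19 and 54.1 with DMSO). Just outside it were Utp20 intron 62 (42.0 reads with KH-CB19 and 27.7 with DMSO), Cndp2 intron 6 (58.6 reads with KH-CB19 and 38.8 with DMSO) and Caprin1 intron 25 (184 reads with KH-CB19 and 122 with DMSO). None of these 6 introns passed the authors' test.

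The ratio of KH-CB19 to DMSO at 0 h did not enter the rule, and by it the members did not stand higher with KH-CB19. The 0 h reads are not fully separate from the choice, because 2 h values are given only for detained introns, and the 0 h excess over expected reads in DMSO cells passed the authors' test in 98.7% of the introns with 2 h values. The 0 h means are not scaled for depth, so each log2 ratio, KH-CB19 over DMSO, was centred on the median over all introns with 2 h values, -0.36. The centred ratio had a median of -0.04 in members (exact 95% interval -0.06 to 0.01), -0.04 in losing introns and 0.01 in introns in between. It was 1.5-fold or more above 0 in 8 of 391 members (2.05%), against a background of 2.95% of the 2815 introns, and 1.5-fold or more below 0 in 10 members (2.56%), against 1.14%. The members' 0 h ratios thus lay on both sides of 0, with 183 of 391 above it.

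**Figure D2:**
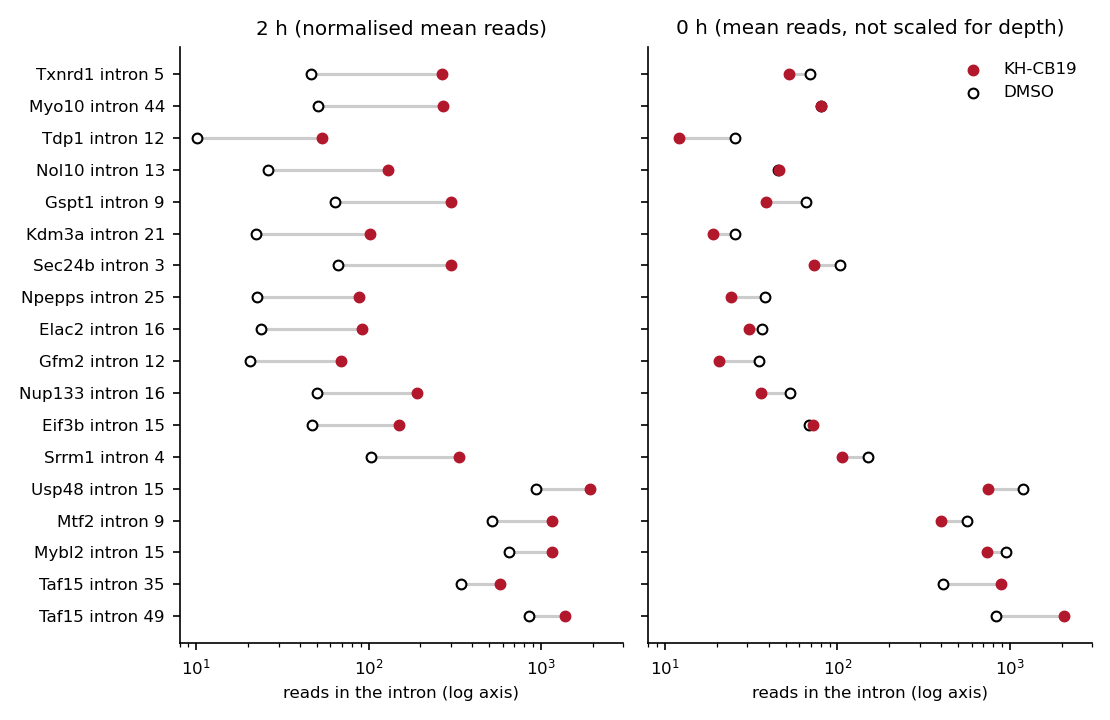
Mean reads in 18 named members on a log axis, at 2 h (left, normalised) and at 0 h (right, not scaled for depth), with KH-CB19 as filled red points and DMSO as open points. At 2 h every red point lies right of its open point by the rule. At 0 h most lie at or left of it, apart from both short Taf15 introns, where KH-CB19 had 885.5 and 2065 reads and DMSO 408.5 and 826.5. Over all introns with 2 h values the unscaled 0 h reads also ran lower with KH-CB19 (median log2 ratio -0.36).

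Set against the DMSO 0 h level, members stood higher in KH-CB19 cells at 2 h, and a little lower in DMSO cells at 2 h. The centred log2 ratio of KH-CB19 2 h to DMSO 0 h had a median of 0.78 in members, -0.72 in losing introns and 0.04 in introns in between, and it was above 0 in 382 of 391 members. The centred log2 ratio of DMSO 2 h to DMSO 0 h had a median of -0.13 in members, 0.09 in losing introns and 0.02 in introns in between, and it was below 0 in 268 of 391 members. Both ratios use a 2 h value that the rule used, so they describe the members only. Strn3, a scaffold protein of a phosphatase complex, is the extreme case of the second kind. Its intron 10 had the lowest centred ratio of DMSO 2 h to DMSO 0 h of any member, -1.44. It had 65.4 normalised reads with KH-CB19 and 23.7 with DMSO at 2 h, against 82.5 reads, not scaled for depth, with DMSO at 0 h.

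The 8 members that were 1.5-fold or more higher with KH-CB19 at 0 h included very short introns. The 2 largest were the Taf15 introns of 120 and 132 bp, with centred log2 ratios of 1.68 (intron 49) and 1.47 (intron 35). Wdhd1, a replication fork protein, followed in intron 15 with 47.5 reads with KH-CB19 and 28.0 with DMSO at 0 h (centred log2 ratio 1.10). Cacng7, a channel subunit of the TARP family, had 56.0 reads with KH-CB19 and 36.0 with DMSO in intron 3 (0.98). Of these 8 members, 1 passed the authors' 2 h test, Dock6 intron 25. The 10 members at the low end included Tdp1 intron 12 with 12 reads with KH-CB19 and 25.5 with DMSO, Zfp384 intron 11 with 25.5 reads with KH-CB19 and 55.5 with DMSO, and C1qbp intron 7 with 148 reads with KH-CB19 and 383 with DMSO.

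Members carried the excess of reads that marks detained introns. The authors compared the observed reads of each intron with an expected number, and in DMSO cells at 0 h the median excess was 1.78 on the log2 scale, 3.44-fold (exact 95% interval 3.24 to 3.61). Losing introns had 1.73 and introns in between 1.73. The excess passed the authors' adjusted p of 0.05 in 390 of 391 members in DMSO cells, where the background was 99.1% of the 2815 introns. In KH-CB19 cells at 0 h it passed in 360 members (92.1%), against a background of 95.8%, and the median was 1.77. Members had fewer reads at 0 h than introns in between, with medians of 56.5 and 72.0 in KH-CB19 cells and 74.0 and 90.5 in DMSO cells. Per kilobase of intron in DMSO cells the medians were 44.1 in members and 55.8 in introns in between. The minimum of reads was set on the mean of both 2 h values. Members could therefore reach it with lower DMSO values than introns in between. The DMSO 2 h medians were 51.8 in members and 74.2 in introns in between. How much of the lower 0 h reads, or of the lower KH-CB19 share past adjusted p, comes from this rule was not tested.

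The excess varied widely from member to member. Its lowest values were in Srrm2 intron 21 (1.76-fold), Eed intron 6 (1.94-fold) and Mtf2 intron 22 (1.97-fold), all 3 of which rose at 2 h in the authors' deposited table. Its highest value, 136-fold in Dppa5a intron 4, rests on an expected number of 0.5 reads against 68.0 observed. Dppa5a is a marker of pluripotent cells with close copies in the genome, so its reads may be shared with them. Dhx30 intron 31 had a 22.4-fold excess and Taf15 intron 49 a 19.7-fold excess, and neither passed the 2 h test. When the 2815 introns were split into 4 equal groups by excess, members made up 10.5% of the group with the lowest excess and 15.5, 14.0 and 15.6% of the next ones.

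Members were close in length to introns in between and shorter on median than losing introns. Their median length was 1851 bp (exact 95% interval 1646 to 2067), against 1833 bp in introns in between and 2322 bp in losing introns, and their range was 107 to 19464 bp. With a minimum mean of 10 reads the difference from losing introns was gone, with medians of 1646 bp in members and 1644 bp in losing introns. It remained with a minimum of 50 (2032.5 and 2720 bp), a 2-fold rule (1928 and 2537.5 bp) and the authors' adjusted p (2091.5 and 2720.5 bp). All introns with 2 h values, with no minimum of reads, had a median of 1562 bp (interval 1503 to 1635). Introns of 2 to 5 kb made up 38.6% of members and 49.7% of losing introns. The 3 longest were in Prmt3, an arginine methyltransferase (intron 17, 19464 bp, 464 reads with KH-CB19 and 255 with DMSO), in Rad18, a ubiquitin ligase of translesion synthesis (intron 9, 15440 bp, 359 reads with KH-CB19 and 171 with DMSO), and in Sec24b, a vesicle coat protein (intron 3, 13188 bp, 302 reads with KH-CB19 and 66.7 with DMSO). Of these 3, the Sec24b intron passed, with adjusted p = 7.51e-17 in the authors' deposited table; the others had 0.132 and 0.15. Above 10 kb there were 8 members of 36 introns (22.2%, against 13.9% of all 2815), and 5 of the 8 rose, against 185 of all 391 members.

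**Figure D3:**
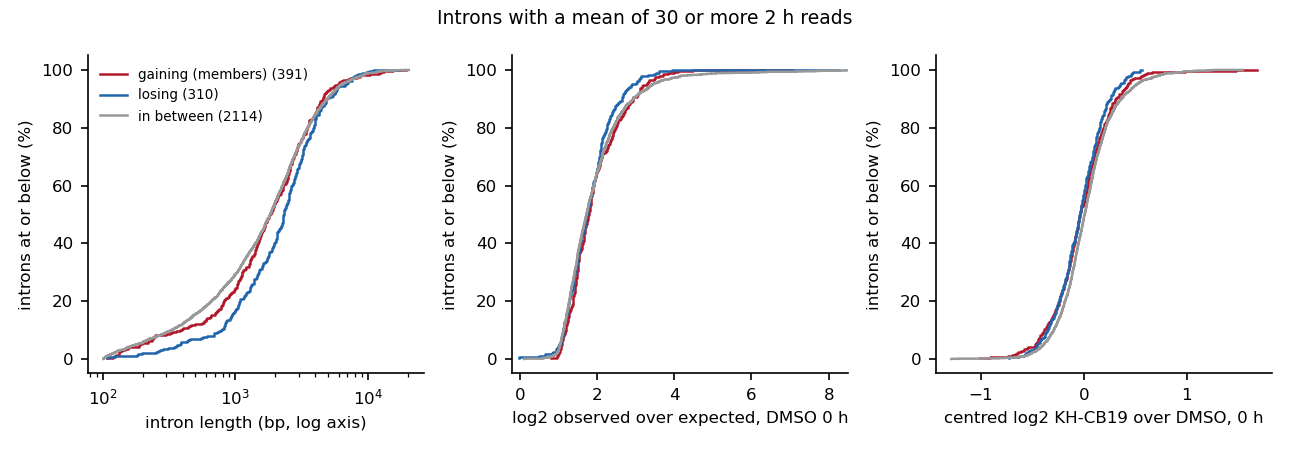
Cumulative share of introns (y, percent) by intron length in bp on a log axis (left), by log2 observed over expected reads in DMSO cells at 0 h (middle) and by the centred log2 ratio of KH-CB19 to DMSO at 0 h (right), for the 391 members (red), the 310 losing introns (blue) and the 2114 introns in between (grey). In length the blue curve lies right of the others. In excess the medians are 1.78, 1.73 and 1.73, and in the 0 h ratio -0.04, -0.04 and 0.01, in the order of the sets above.

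Introns of 200 bp or less gave other counts than longer members did. There were 21 of them, 14.4% of the 146 introns of that length, and 2 of the 21 rose in the authors' deposited table, Srsf1 intron 3 and Rpl7 intron 7, against 183 of 370 longer members. Rpl7 codes for a ribosomal protein with many processed copies in the genome, which can share its reads. The 0 h groups also differed more in the short ones: the centred 0 h ratio was 1.5-fold or more away from 0, in either direction, in 7 of 21 short members (33.3%) and in 11 of 370 longer ones (2.97%). Among introns in between the shares were 17.5% of 120 short and 3.71% of 1994 longer introns. Of the short members, 5 of 21 matched an annotated intron by length, against 329 of 370 longer members. Among introns in between, 56 of 120 short and 1741 of 1994 longer introns matched, and 5 of 5 short losing introns did. What sets these differences was not tested.

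Most members lay inside the coding region, as did most introns of the other sets. Of the 391, 334 (85.4%) matched a GENCODE M21 intron of the same gene and length, and 320 of the 334 (95.8%) lay between coding exons, against 93.7% of matched losing introns and 93.6% of introns in between. One was a first intron (0.299%), against 2.33% and 3.17%; it was Mcm3ap intron 8, matched to a short transcript with no coding sequence. Last introns numbered 10 (2.99%), against 6.00% and 6.40%. The 3 members in a 5′ UTR were Aim2 introns 4 and 6 and Usp37 intron 3, and 5 lay in a 3′ UTR of the matched transcript.

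Members came from transcripts with many exons. The matched transcripts had a median of 17 introns (exact 95% interval 15 to 18), against 14 for losing introns and 14 for introns in between, and the member was on median the 11th of these, against the 9th in both other sets. Relative position was alike: 72.2% of matched members and 71.2% of all matched introns lay beyond the midpoint of their transcript, counted in introns. Members made up 8.88% of the introns in the first 25% of the transcript, 15.2% of those up to 50%, 15.9% of those up to 75% and 12.4% of those after it. Exons upstream of members had a median of 128 nt and exons downstream 125 nt, against 132 and 146 nt for losing introns and 116 and 120 nt for introns in between.

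Fewer members than other introns had an annotated alternative. An annotated transcript kept the intron in 29 of 334 matched members (8.68%, exact 95% interval 5.89 to 12.2%), in 15.0% of losing introns and in 15.9% of introns in between. A neighbouring exon was skipped in some annotated transcript for 80 members (24.0%, interval 19.5 to 28.9%), for 39.7% of losing introns and for 31.2% of introns in between. With membership set by the authors' adjusted p, these shares became 9.38% kept and 28.8% skipped in members, against 18.3 and 55.8% in losing introns and 15.0 and 30.1% in the rest. No test was run on these shares, and annotation depends on how well each gene is covered by deposited transcripts.

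The members were spread over 20 chromosomes, with between 7.14% of the introns (chromosome 19) and 21.2% (chromosome 13) meeting the rule. A single member was found in 312 genes, 2 in 27 genes, 3 in 7 genes and 4 in 1 gene. In the genes with several members, 15 of 35 consecutive pairs of matched members were neighbouring introns of the transcript. H2afy introns 9 and 10 overlap and share most of their reads, so they are not independent, although each is counted as a member here; H2afy codes for the histone variant macroH2A1.

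Nup133, a scaffold subunit of the nuclear pore, was the gene with 4 members, and all 4 rose. Intron 16 had 192 reads with KH-CB19 and 49.9 with DMSO (by the authors' deposited table, adjusted p = 3.87e-06, log2 ratio 1.94). Intron 19 had 127 reads with KH-CB19 and 46.1 with DMSO, intron 18 had 91.4 reads with KH-CB19 and 42.7 with DMSO, and intron 28 had 116 reads with KH-CB19 and 63.3 with DMSO. Introns 16, 18 and 19 are the 14th, 16th and 17th of 25 introns of the matched transcript, and intron 28 is the 24th; no other Nup133 intron had a 2 h value. At 0 h the same 4 introns had 36.0, 36.5, 24.5 and 90.5 reads with KH-CB19 and 53.0, 50.5, 43.0 and 109.5 reads with DMSO, in the order 16, 19, 18 and 28. These 0 h reads are not scaled for depth, and over all introns with 2 h values such reads ran lower with KH-CB19.

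Among genes with 3 members, the pattern differed in how many passed. In Tmem131, a membrane protein gene, introns 36 and 38 rose (402 reads with KH-CB19 and 138 with DMSO; 117 reads with KH-CB19 and 45.3 with DMSO), while intron 41 had 43.7 reads with KH-CB19 and 26.7 with DMSO and did not pass. Sltm, which codes for an RNA-binding protein with a SAP domain, had rises in introns 7 and 13 (134 reads with KH-CB19 and 70.2 with DMSO; 137 reads with KH-CB19 and 54.7 with DMSO), and intron 12 missed with adjusted p = 0.0719 in the authors' deposited table. Adss, an enzyme of AMP synthesis, had rises in introns 12 and 14 with 249 and 266 reads with KH-CB19 and 104 and 134 reads with DMSO. Ncor1, a transcriptional corepressor, had rises in introns 55 and 61. Lrpprc, a mitochondrial RNA-binding protein, rose in intron 32 (108 reads with KH-CB19 and 59.1 with DMSO), and 2 of its other members and 2 non-members did not pass. Taf15 rose in its 8315 bp intron 12 (1661 reads with KH-CB19 and 972 with DMSO), and none of the 3 Nol10 members passed.

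**Figure D4:**
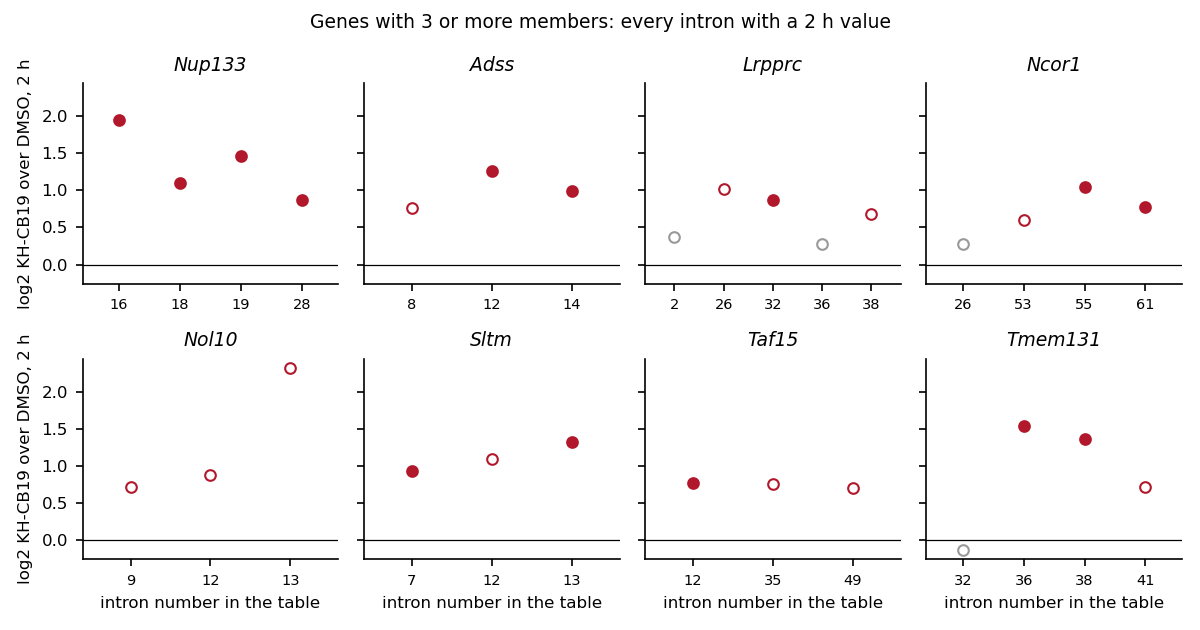
Log2 ratio of KH-CB19 to DMSO at 2 h (y) for every intron with a 2 h value in the 8 genes with 3 or more members, by intron number in the table (x). Red points are members and grey points other introns; filled points passed adjusted p 0.05. All 4 Nup133 points are filled, and the 4 grey points lie between -0.14 and 0.38.

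The other introns of host genes, which by the rule cannot be 1.5-fold higher, had ratios close to 0. In the 166 host genes with at least 2 introns of 30 reads or more, all such introns were members in 19 genes. The 190 other introns of host genes had a median log2 ratio of 0.03, 52.1% were above 0, 1 rose and 4 fell in the authors' deposited table, and 18 (9.47%) were losing introns. The 2234 non-member introns of other genes had a median of -0.05, 44.4% were above 0, and 292 (13.1%) were losing introns. Exon levels are not among the values used here, so a change of whole transcripts was not tested.

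A member and a losing intron stood together in 16 host genes, and in 1 of them, Mybl2, both a rise and a fall passed the authors' test. Ptprf, a receptor tyrosine phosphatase, had 106 reads with KH-CB19 and 64.7 with DMSO in intron 24, a member that did not pass (by the authors' deposited table, adjusted p = 0.0923), and 13.9 reads with KH-CB19 and 68.1 with DMSO in intron 11, which fell (by the authors' deposited table, adjusted p = 2.08e-06, log2 ratio -2.29). Nup153, a nuclear pore basket protein, had 137 reads with KH-CB19 and 90.9 with DMSO in intron 27 (0.137 by the same measure), against 46.7 reads with KH-CB19 and 119 with DMSO in intron 23, which fell (by the authors' deposited table, adjusted p = 0.000225). Lta4h, the leukotriene A4 hydrolase, had 55.5 reads with KH-CB19 and 29.5 with DMSO in intron 12 (0.106), against 18.0 reads with KH-CB19 and 45.0 with DMSO in intron 16, which fell (by the authors' deposited table, adjusted p = 0.0269). In Zfp384, a zinc finger transcription factor, the neighbouring introns 11 and 10 differed in sign: intron 11 rose with 59.5 reads with KH-CB19 and 24.9 with DMSO, and intron 10 had 70.5 reads with KH-CB19 and 116 with DMSO and did not pass. Mybl2, a cell cycle transcription factor, rose in intron 15 (1162 reads with KH-CB19 and 648 with DMSO) and fell in intron 18 (146 reads with KH-CB19 and 297 with DMSO).

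By function, the host genes were mixed, and 245 of the 391 members were in genes of none of the 23 lists used. Members made up 13.1% of the introns of genes in no list (245 of 1868) and 15.4% of those in any list (146 of 947), against 13.9% of all. The lists overlap and most hold few introns, and no test was run on them, so their shares are descriptions. Over all 2815 introns, 11.0% were losing introns, and by the authors' adjusted p 6.61% rose and 4.48% fell.

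RNA 3′ end formation had the largest share of any list with 10 or more introns, 8 members of 25 introns, of which 4 rose, and 1 losing intron. Cstf3, a subunit of the cleavage stimulation factor, rose in intron 15 with 109 reads with KH-CB19 and 40.1 with DMSO (by the authors' deposited table, adjusted p = 9.56e-05, log2 ratio 1.44) and in intron 17 with 116 reads with KH-CB19 and 55.0 with DMSO. Cpsf6, a subunit of cleavage factor I, rose in intron 5 (186 reads with KH-CB19 and 79.7 with DMSO; by the authors' deposited table, adjusted p = 0.0238), and Wdr33, the subunit that reads the polyadenylation signal, rose in intron 17 (71.5 reads with KH-CB19 and 27.7 with DMSO; 0.0157). The Integrator subunit gene Ints4 had 2 members with adjusted p-values of 0.0719 and 0.225 in the authors' deposited table, and Cstf2 intron 13 had 0.312.

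Members were found in every class of splicing factor genes other than the kinases. The core spliceosome had 12 members of 58 introns and 1 losing intron, and 3 of the 12 rose: Dhx38, the helicase of the second step (124 reads with KH-CB19 and 49.9 with DMSO in intron 28), Prpf3, of the U4/U6 snRNP (79.6 reads with KH-CB19 and 39.0 with DMSO in intron 16), and Cdc5l, of the Prp19 complex (262 reads with KH-CB19 and 153 with DMSO in the 11396 bp intron 16). The 12 include introns 22 and 27 of Skiv2l2, which did not pass. Skiv2l2 codes for an RNA surveillance helicase, and the list used counts it here. SR and SR-related genes had 5 members and 10 losing introns of 43, and 4 rose and 9 fell in the authors' deposited table. Of all 2815 introns, 6.61% rose and 4.48% fell by the same test. The SR members that rose were Srrm1 intron 4 (336 reads with KH-CB19 and 104 with DMSO; by the authors' deposited table, adjusted p = 1.62e-11, log2 ratio 1.69), Thrap3 intron 9 (136 reads with KH-CB19 and 59.1 with DMSO), Srrm2 intron 21 (309 reads with KH-CB19 and 137 with DMSO) and Srsf1 intron 3. The CLK, SRPK and DYRK kinase genes had no member among 11 introns, and 7 of the 11 were losing introns. Other splicing regulators had 3 members and 5 losing introns of 36, and 5 fell, with rises in Ccnk intron 8 (314 reads with KH-CB19 and 132 with DMSO) and Rbm6 intron 20 (221 reads with KH-CB19 and 101 with DMSO). Ccnk codes for a cyclin, cyclin K, and is counted here because the list used holds it.

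Chromatin genes contributed rises in introns with few and with many reads. Polycomb genes had 5 members and 3 losing introns of 22, and 4 members rose. Mtf2, a recruiter of the Polycomb repressive complex 2, had 1167 reads with KH-CB19 and 522 with DMSO in intron 9 (by the authors' deposited table, adjusted p = 2.57e-08) and 519 reads with KH-CB19 and 285 with DMSO in intron 22. Eed, a core subunit of the same complex, had 279 reads with KH-CB19 and 123 with DMSO in intron 6. Chromatin remodelling and histone modification genes had 12 members, both H2afy introns among them, and 6 losing introns of 73, and 9 members rose, among them Trrap intron 58 (74.0 reads with KH-CB19 and 31.6 with DMSO), a histone acetyltransferase scaffold, and Kdm2a intron 18 (145 reads with KH-CB19 and 73.9 with DMSO), a histone H3 lysine 36 demethylase.

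**Figure D5:**
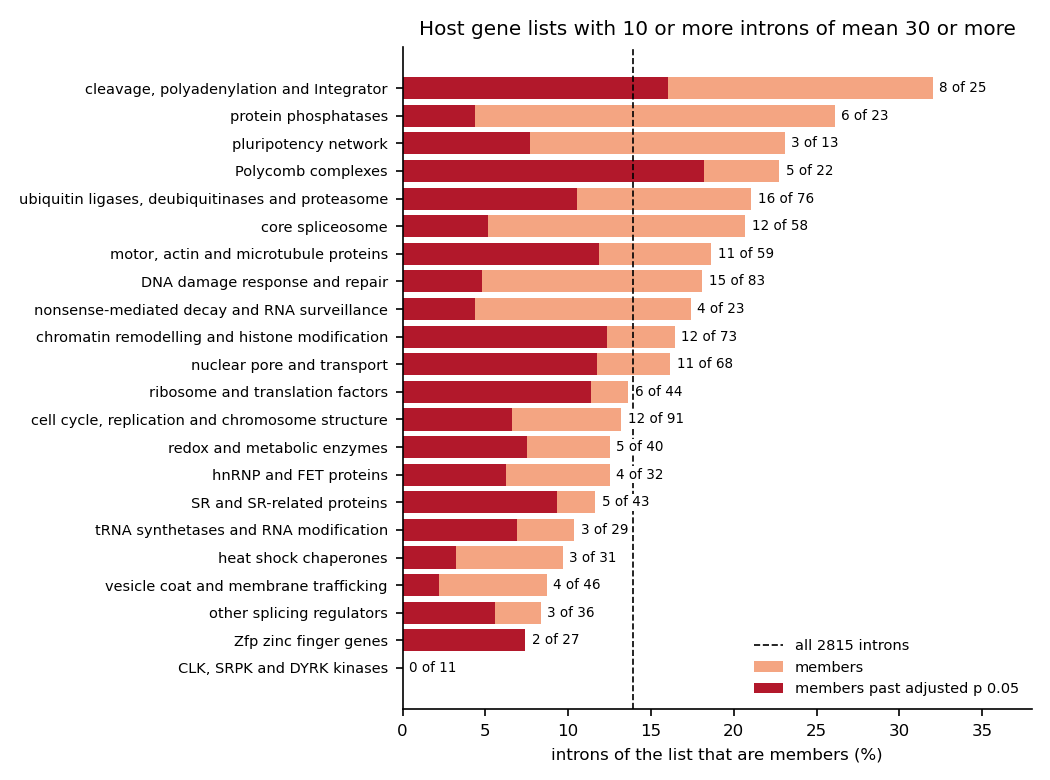
Share of introns with a mean of 30 or more 2 h reads that are members (x, percent), for the 22 host gene lists with 10 or more such introns; dark red is the portion whose rise passed adjusted p 0.05, and labels give members of introns. The dashed line is the 13.9% of all 2815 introns; the lists run between 8 of 25 for 3′ end formation and 0 of 11 for the CLK, SRPK and DYRK kinases.

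Ubiquitin and proteasome genes had 16 members of 76 introns, the largest number in a list, and 7 losing introns, and 8 members rose. Usp48, a deubiquitinase, had the most reads of any member in KH-CB19 cells at 2 h, 1930 with KH-CB19 and 936 with DMSO in intron 15 (by the authors' deposited table, adjusted p = 2.95e-07, log2 ratio 1.04). Usp11, another deubiquitinase, rose in intron 13 with 94.45 reads with KH-CB19 and 29.99 with DMSO. Huwe1, a ligase encoded by a transcript with 82 introns, rose in intron 66 (88.7 reads with KH-CB19 and 31.6 with DMSO; by the authors' deposited table, adjusted p = 0.0442), and its intron 90 did not pass.

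Nuclear pore and transport genes had 11 members and 7 losing introns of 68, and 8 members rose, 4 of them in Nup133. Nup210, a membrane protein of the pore, rose in intron 32 with 114 reads with KH-CB19 and 41.1 with DMSO, and the import receptor Ipo7 rose in intron 25 with 99.0 reads with KH-CB19 and 48.4 with DMSO. DNA damage and repair genes had 15 members and 8 losing introns of 83, and 4 members rose, in Huwe1, Xrcc5 (intron 25, 151 reads with KH-CB19 and 66.3 with DMSO), Blm (intron 19, 532 reads with KH-CB19 and 238 with DMSO) and Rev1 (intron 13, 102 reads with KH-CB19 and 56.3 with DMSO). Cell cycle and replication genes had 12 members and 18 losing introns of 91, and 6 members rose, with Mcm5, a subunit of the replicative helicase, at 499 reads with KH-CB19 and 283 with DMSO in intron 14. Motor, actin and microtubule genes had 11 members and 6 losing introns of 59, and 7 members rose, with Kif2a, a microtubule depolymerase, at 88.8 reads with KH-CB19 and 29.1 with DMSO in intron 10.

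The remaining lists held few members. Ribosome and translation genes had 6 members and 2 losing introns of 44, and 5 members rose, with Eif3b, a scaffold of initiation factor 3, at 149 reads with KH-CB19 and 47.0 with DMSO in intron 15. Protein phosphatase genes had 6 members and 4 losing introns of 23, and 1 member rose, Ppp2r5c. Pluripotency genes had 3 members and 3 losing introns of 13, and 1 member rose, the transcription factor Tfcp2l1 (intron 16, 155 reads with KH-CB19 and 90.4 with DMSO; adjusted p = 0.0271 in the authors' deposited table). The hnRNP and FET genes had 4 members and 5 losing introns of 32. In them 7 introns fell past the authors' adjusted p, some by less than 1.5-fold, against 4.48% of all 2815 introns. The members that rose were Taf15 intron 12 and Hnrnpu intron 4 (1008 reads with KH-CB19 and 554 with DMSO). Heat shock, vesicle, surveillance and tRNA or RNA modification genes had 3 of 31, 4 of 46, 4 of 23 and 3 of 29, with 1, 1, 1 and 2 rises and with 0, 7, 2 and 2 losing introns. Redox and metabolic genes had 5 of 40 with 3 rises and 2 losing introns, among them the transketolase gene Tkt (intron 6, 315 reads with KH-CB19 and 137 with DMSO). The Zfp genes had 2 of 27, both of which rose, and 5 losing introns. Of 6 introns in O-GlcNAc cycling genes 1 was a losing intron and 1 was a member and rose, Mgea5 intron 10, in the gene of the enzyme that removes O-GlcNAc (315 reads with KH-CB19 and 190.03 with DMSO; by the authors' deposited table, adjusted p = 0.0235).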

How the data were processed

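RNA from 8 libraries was measured by stranded, paired-end, polyA-selected sequencing. The submitters' processing notes name DESeq, Cufflinks 2.1.1, bedtools 2.17.0, SAMtools 0.1.19, TopHat2 2.0.9, Bowtie 1.0.0 and the mm9 build. The authors deposited, per the file headers, observed and expected mean read counts at 0 h, normalised mean signal in reads at 2 h, log2 ratios and adjusted p-values; how the expected count was made and how p-values were adjusted is not given in the sources used here. Totals per library are unknown; over the introns, the authors' deposited 0 h means summed to 1002850 reads (KH-CB19) and 1286589 (DMSO), so intervals below cover the number of introns only. An untreated library was not analysed here.

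The 2 h log2 ratios equal the ratio of the deposited means. No test was added. Medians carry exact order-statistic intervals and shares exact binomial intervals at 95%, treating introns as independent although introns of a gene are not. For 0 h ratios 1 read was added to each mean. The deposited start is counted from 0; printed coordinates count from 1. Introns were matched to GENCODE M21 by gene name or synonym, chromosome, strand and exact length, a step added after the data were seen, with the intron start shifted by 1 amount per gene in 617 of 620 genes with several matches; coordinates were not converted. Sequences come from GENCODE M21 transcripts. Named introns are the 15 largest log2 ratios, members of genes with several, 2 per gene list, and 3 at each end of length, excess, 0 h ratio and threshold; others were named after their values were seen. Some introns that the rule names are not reported here. The members and the 23 gene lists were chosen with earlier results of these data known. The rule and the intervals were tested on simulated data. Python 3.11.15, pandas 2.3.3, numpy 2.4.6, scipy 1.17.1 and matplotlib 3.10.9 were used.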

Additional observations from a re-analysis of the deposited data

How the results depend on the processing

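The 12 results were recomputed under 12 alternatives, which gave 92 values, and 76 of these stayed within the 95% interval of the value reported, or within 1.5 times the count. A 2-fold rule left 131 members, and the authors' adjusted p with a rise in place of the fold gave 186 introns, 185 of them members. Under the 2-fold rule the centred 0 h change was -0.070, the KH-CB19 2 h level over DMSO 0 h 1.11, the DMSO 2 h level over DMSO 0 h -0.19, the share with G at base 5 100% of 8 introns, and the share past adjusted p 84.0%. Under the adjusted p the median length was 2092 bp, the KH-CB19 2 h level over DMSO 0 h 0.96, and the share with G at base 5 100% of 15 introns. That level was 0.83 with 10 reads added in the rule and 0.68 when centred on summed reads. The share of members past adjusted p was 56.3% with a minimum mean of 50, 41.5% with a minimum of 10 and 55.4% with 10 reads added in the rule. The median 0 h excess with a minimum of 10 was 1.85. No value changed direction. Fewer introns enter under stricter rules; otherwise the cause was not tested. Matching by current symbols only and leaving out introns of 200 bp or less, both chosen after seeing the data, kept their results within the interval.

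No paired analysis was possible because only group means were deposited for the intron values used here; for the same reason leaving out each replicate, other size factors and a low-count filter were not run. With 2 libraries a group and no library values, precision per intron is unknown, and low introns passed the authors' test less often at a similar median fold.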
